A study of Bos taurus with 28 samples.

Results

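The genes of the mitochondrial respiratory chain and ATP synthase, 84 of the 8073 genes that the array annotation names by a single symbol, were followed in the liver of dairy cows with induced ketosis. They were taken by symbol: the NDUF, SDH, UQCR, UQCC, COX4 to COX8, COX10 to COX19 and ATP5 families and CYC1. Within these families no gene was picked by its value, but the families were chosen with earlier results of these data known. They fall into 34 subunits of complex I, 4 of complex II, 9 of complex III, 13 of complex IV and 12 of ATP synthase (complex V), with 11 assembly factors of complexes I, III and IV and 1 inhibitor of ATP synthase. All 84 are nuclear genes, and the 13 subunits encoded in mitochondrial DNA had no tested gene here. Cytochrome c (CYCS), the mobile carrier between complexes III and IV, and ATP5PB, a stalk subunit of ATP synthase, are named only on probes that carry several symbols, and were not analysed here.

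The animals were 14 multiparous Holstein cows, found healthy on day 4 after calving and then assigned at random to 2 groups. The ketotic group, 7 cows, was fed 50% of the day 4 intake from day 5 (day 4 in the sample labels) until signs of clinical ketosis appeared or until day 14. The healthy group, 7 cows, was the control group without feed restriction. Ketosis was thus brought on by restricted feeding, and feed intake and ketosis cannot be told apart in this design. Liver RNA of each cow was hybridised to 2 spotted cDNA arrays with the dyes exchanged, against a reference RNA pooled from cattle tissues, so each cow is 1 replicate, and precision is limited by there being 7 cows a group.

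The respiratory chain passes electrons from NADH (through complex I) and from succinate (through complex II) to ubiquinone, then through complex III and cytochrome c to complex IV, which reduces oxygen. Complexes I, III and IV pump protons across the inner membrane, and ATP synthase uses their return flow to make ATP. In a liver that oxidises mobilised fatty acids and makes ketone bodies, this chain reoxidises the NADH and reduced flavins that fatty acid oxidation produces.

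Each value below is the log2 ratio of liver over reference, with every array centred on its median, and a difference is the ketotic mean minus the healthy mean on that log2 scale. The direction of the ratios is called likely, since the label fields of 1 ketotic array name Cy5 for both channels. With arrays turned by the dye in their titles, hepatocyte markers lay above genes of other tissues on 28 of 28 arrays, by a median of 5.23 log2 units. Healthy cow 7 stood apart: its profile correlated with those of the other 13 cows at r of 0.397 to 0.483, while no other pair of cows fell below 0.792. Ketotic cow 5 had the largest share of spots with no ratio (25%) and the widest spread of ratios (a median absolute deviation of 1.69). Spots with no ratio made up 16.5% ± 4.49 in ketotic cows and 11.9% ± 2.80 in healthy cows (SD, n = 7 each), and the spread of ratios was 1.4 ± 0.185 in ketotic cows and 1.12 ± 0.128 in healthy cows. These technical measures therefore moved with the groups, and the counts below are given also with each cow's empty-spot share in the fit and with arrays scaled to the same spread.

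Of the 84 genes, 76 were tested, having been measured in 5 or more ketotic and 5 or more healthy cows. Transcripts of 31 of these 76 fell in ketotic liver and 0 rose (limma, adjusted p below 0.05); 0 had a positive difference at an unadjusted p under 0.05. Over all 6958 genes tested, 12.4% fell and 0.92% rose. The median difference of the 76 members was -0.56, with an interquartile range of -0.86 to -0.34, against a median of -0.18 over all genes. The difference lay below 0 for 72 of the 76 members, which is 94.7%, against 67.2% of all genes. Every ketotic cow lay below the healthy mean for 53 of the 76 members (69.7%, against 25.8% of all genes). For 20 members the highest ketotic cow was still below the lowest healthy cow, a pattern that 5.39% of all genes showed; without healthy cow 7 it held for 30 members and 8.59% of all genes. In whole liver, fewer cells of a type and less RNA per cell cannot be told apart.

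Healthy cow 7 weighed on these counts. It was the lowest of the healthy cows for 39 of the 73 members in which it had a value (53.4%, against 35.3% of all genes). Without it 51 of 76 members fell and none rose, where 18.4% of all genes fell, and the median member difference was -0.60. The 31 members that fell with all cows fell again, and 20 more joined them. Ketotic cow 5 was the lowest ketotic cow for 52 of 72 members (72.2%, against 40.1% of all genes). Without it 29 members fell, where 9.85% of all genes did, and the median member difference was -0.49. With the empty-spot share of each cow in the fit 9 members fell with all cows, where 2.3% of all genes did, while the median member difference was -0.50 and 73 of 76 differences lay below 0. Without healthy cow 7 that fit had 24 members lower, where 8.88% of all genes were, and a median of -0.56. With arrays scaled to the same spread 26 members fell, where 7.4% of all genes did, with a median of -0.54, and with quantile normalisation 25 did, where 7.72% of all genes did, with a median of -0.56.

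**Figure D1:**
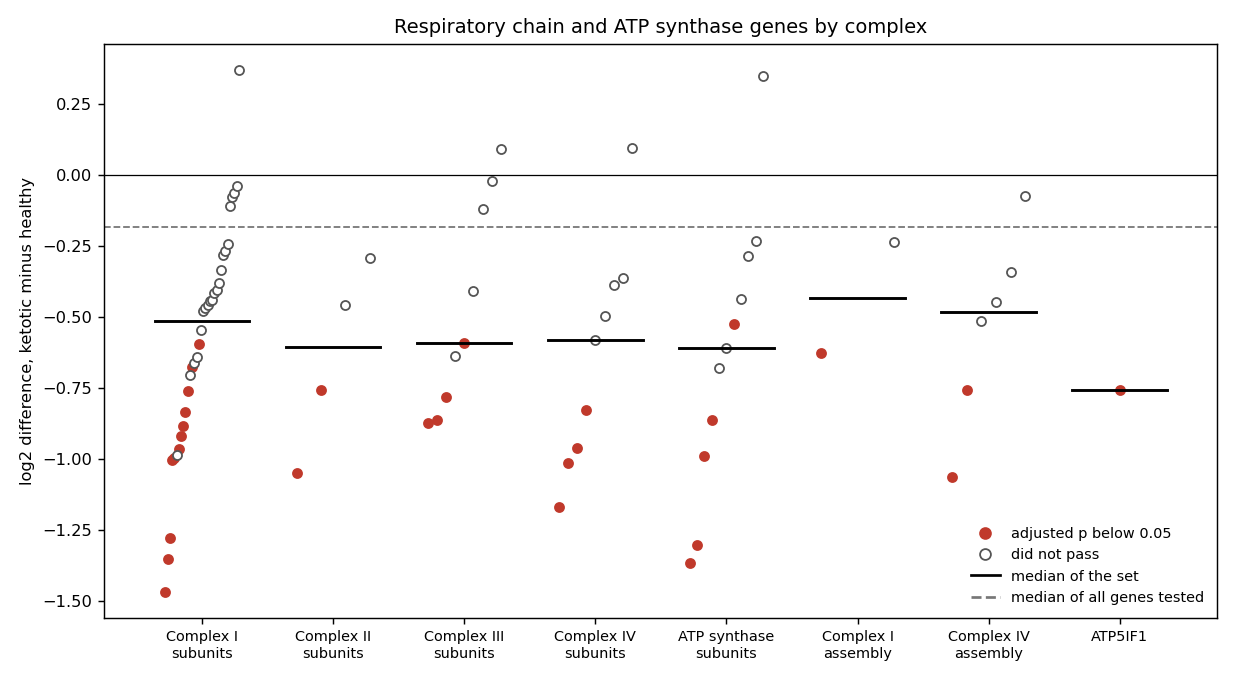
Log2 difference, ketotic minus healthy, of each tested gene (points), grouped by complex along the horizontal axis; filled points passed an adjusted p of 0.05, black bars are set medians and the dashed line is the median of all genes tested. All 31 filled points lie below 0, and the medians of the 5 complexes lie between -0.61 and -0.51.

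As reported, the 5 complexes had closely similar medians, which lay farther apart in some other settings. Among subunits, 12 of 34 fell in complex I, 2 of 4 in complex II, 4 of 9 in complex III, 4 of 9 tested in complex IV and 5 of 11 tested in ATP synthase. As shares these are 35.3%, 50.0%, 44.4%, 44.4% and 45.5%, each to be read against the 12.4% of all genes. The median differences were -0.51 for complex I, -0.61 for complex II, -0.59 for complex III, -0.58 for complex IV and -0.61 for ATP synthase. The ranges within a complex were far wider than the gaps between complexes: -1.47 to 0.37 in complex I, -1.05 to -0.29 in complex II, -0.87 to 0.09 in complex III, -1.17 to 0.09 in complex IV and -1.37 to 0.35 in ATP synthase. Without healthy cow 7 the order changed, with medians of -0.56, -0.71, -0.59, -0.74 and -0.81 for complexes I to V. In that fit 21, 4, 5, 7 and 8 subunits were lower, where 18.4% of all genes were. With arrays scaled to the same spread the medians ran from -0.54 in complex I to -0.76 in complex II, and with quantile normalisation from -0.54 to -0.79. With the empty-spot share in the fit and all cows, 3, 1, 0, 2 and 3 subunits of complexes I to V were lower, where 2.3% of all genes were.

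Medians over the members were also taken cow by cow. Each gene was first centred on the midpoint of its ketotic and healthy means. The median over all tested members then ran from -0.80 to 0.05 in ketotic cows (median -0.27) and from -0.01 to 0.59 in healthy cows (median 0.31). The lowest value belonged to ketotic cow 5 and the lowest healthy value to healthy cow 7, and ketotic cow 1, at 0.05, was the single ketotic cow above healthy cow 7. The other 6 healthy cows started at 0.22, above every ketotic cow. Over all genes tested the same medians ran from -0.31 to 0.01 in ketotic cows and from 0.07 to 0.14 in healthy cows. Of the 10 pairs of complexes, the within-cow gap between medians separated the groups in 1, complex I minus ATP synthase. That gap was 0.0634 ± 0.0552 in ketotic cows (range -0.0153 to 0.121) and -0.0779 ± 0.0531 in healthy cows (range -0.155 to -0.0246; SD, n = 7 each). The ATP synthase median was thus lower relative to that of complex I in ketotic cows, by 0.141 log2 units, which was not tested. It was not seen with either dye alike: the median differences of complex I and ATP synthase were -0.68 and -0.88 with liver in Cy3. With liver in Cy5 both were -0.46. Single cows also differed between complexes: healthy cow 7 was at -0.18, -0.16 and -0.15 for complexes I, II and V but at 0.22 and 0.57 for complexes III and IV, and healthy cow 2 was at -0.15 for complex II but at 0.39 for ATP synthase. In the other 9 pairs the gaps of ketotic and healthy cows overlapped.

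**Figure D2:**
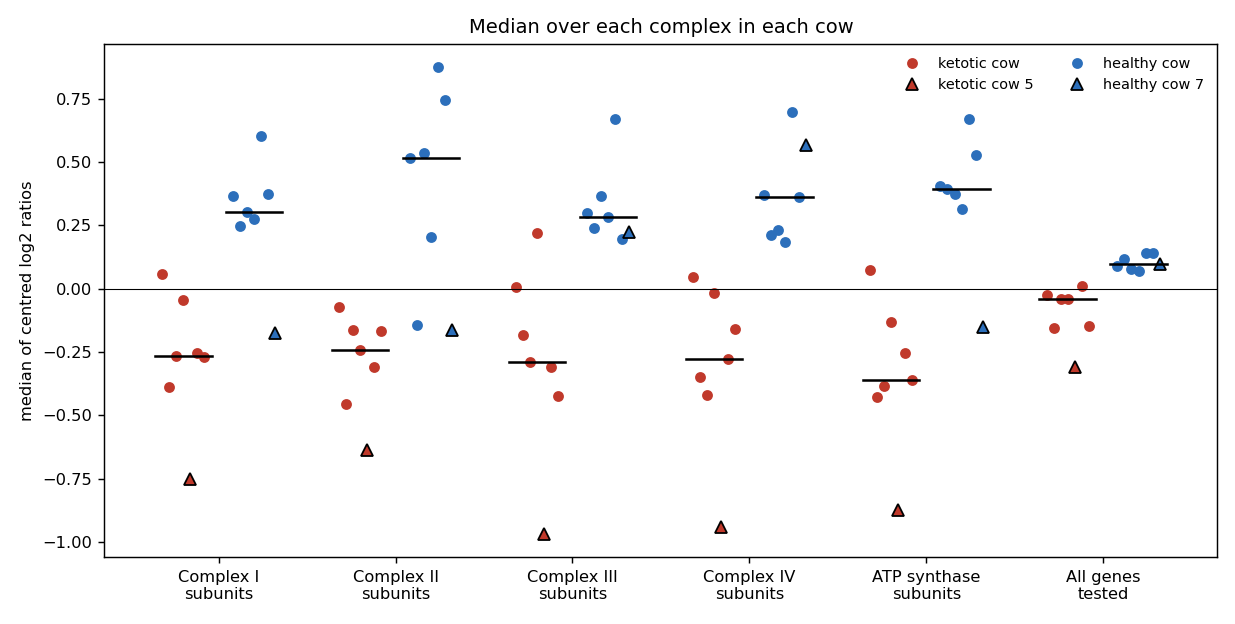
Median of gene-centred log2 ratios in each cow (points) for the subunits of each complex and for all genes tested; bars are group medians, and triangles mark ketotic cow 5 and healthy cow 7. Ketotic cow 5 is the lowest cow in every complex, and healthy cow 7 lies among the ketotic cows for complexes I, II and V but at 0.567 for complex IV.

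Complex I, the NADH dehydrogenase that feeds electrons from NADH into the chain, had 12 transcripts lower, all of them accessory subunits, which surround the catalytic core and serve its assembly and stability. NDUFB5, of the membrane arm, had log2 ratios of -2.27, -1.75 and -1.05 (lowest, median and highest) in ketotic cows, against -0.64, -0.50 and -0.09 in healthy cows. The groups did not overlap, and NDUFB5 fell by 1.28 on the log2 scale, 2.42-fold (SE 0.177, limma adjusted p = 0.00241). NDUFA11, also of the membrane arm, had -2.17, -1.68 and -1.03 in ketotic cows, against -0.63, -0.19 and 0.27 in healthy cows. Again every ketotic cow lay below every healthy cow, and NDUFA11 was 2.55-fold lower (SE 0.192, limma adjusted p = 0.00241).

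NDUFA8, an accessory subunit held by disulfide bonds on the intermembrane side, had log2 ratios of -1.60, -1.03 and -0.62 in ketotic cows, against -0.55, -0.10 and 0.38 in healthy cows. The groups were separate, with NDUFA8 1.95-fold lower (SE 0.181, limma adjusted p = 0.0051). NDUFAB1, the mitochondrial acyl carrier protein, which is both a complex I subunit and a carrier in mitochondrial fatty acid synthesis, had -1.47, -0.68 and -0.28 in ketotic cows, against -0.43, 0.16 and 0.55 in healthy cows. The groups overlapped through healthy cow 7, at -0.43, and NDUFAB1 was 1.78-fold lower (SE 0.186, limma adjusted p = 0.0108). Without that cow the lowest healthy value was -0.06.

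The largest fitted difference of any member was that of NDUFS4, a subunit of the peripheral arm whose loss in humans causes Leigh syndrome, but its size leaned on 1 cow. NDUFS4 had log2 ratios of -4.01, -1.45 and -0.86 in ketotic cows, against -0.69, -0.34 and 0.08 in healthy cows, with a difference of -1.47 (SE 0.368, limma adjusted p = 0.0186). The value of -4.01 was ketotic cow 5, and the next ketotic cow was at -1.69. The groups did not overlap, and NDUFS4 passed in 14 of the 14 fits that left out 1 cow. The 7 other accessory subunits that fell had differences between -1.0 and -0.59 and limma adjusted p-values between 0.0126 and 0.0275: NDUFA2 was 1.99-fold lower, NDUFA6 2.0-fold, NDUFA1 1.89-fold, NDUFS5 1.84-fold, NDUFA12 1.69-fold, NDUFC1 1.6-fold and NDUFA7 1.51-fold. NDUFC1 passed in 10 of the 14 fits that left out 1 cow, with limma adjusted p-values of 0.0506 to 0.055 without healthy cow 1, 2, 3 or 5. The ketotic and healthy cows did not overlap for NDUFA2, NDUFA6 and NDUFA7. They overlapped for NDUFA1, NDUFS5 and NDUFC1, in each of which healthy cow 7 was the lowest healthy cow (-1.07, -0.98 and -0.57), and for NDUFA12, through healthy cow 6 at -1.31.

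The catalytic core of complex I, which holds the flavin and the iron-sulfur clusters that carry the electrons, had 6 tested genes, of which 0 passed in limma and 2, NDUFS1 and NDUFS8, had an unadjusted p under 0.05. This grouping was made after the values were seen and has no test. The median difference was -0.40 over the 6 core genes and -0.62 over the 28 accessory genes. Without healthy cow 7 the gap was narrower, with medians of -0.43 and -0.58. In that fit 3 of the 6 core genes and 18 of the 28 accessory genes fell, where 18.4% of all genes did. NDUFS1 had a difference of -0.70 (limma adjusted p = 0.0933), NDUFS8 of -0.44 (0.0926), NDUFV2 of -0.41 (0.326) and NDUFS3 of -0.38 (0.199). For NDUFV1, the subunit that binds NADH and the flavin, ketotic cows had log2 ratios of -0.06, 0.17 and 0.57, against -0.09, 0.31 and 0.70 in healthy cows. These ranges nearly coincide, with a difference of -0.06 (limma adjusted p = 0.834). NDUFS7, which carries the last iron-sulfur cluster before ubiquinone, had 1.70, 2.46 and 2.70 in ketotic cows, against 1.67, 2.53 and 2.90 in healthy cows, a difference of -0.08 (limma adjusted p = 0.865). Without healthy cow 7, NDUFS1 (-0.94, adjusted p = 0.00274), NDUFV2 (-0.65, 0.0144) and NDUFS3 (-0.50, 0.0355) passed, while NDUFS8 (-0.37, 0.108), NDUFS7 and NDUFV1 did not. Healthy cow 7 was at -1.09 for NDUFS1, -1.57 for NDUFV2 and -0.87 for NDUFS3, each time below every other healthy cow.

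The subunit with the highest difference in complex I was NDUFB1, a small accessory subunit of the membrane arm, at 0.37 (limma adjusted p = 0.438). It had log2 ratios of 0.61, 0.98 and 1.96 in 6 ketotic cows, against 0.05, 0.58 and 1.57 in 7 healthy cows, and the groups overlapped. It was the only one of the 34 complex I subunits with a difference above 0 as reported, and its sign turned when the arrays were left uncentred and when the arrays with liver in Cy5 were taken alone.

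**Figure D3:**
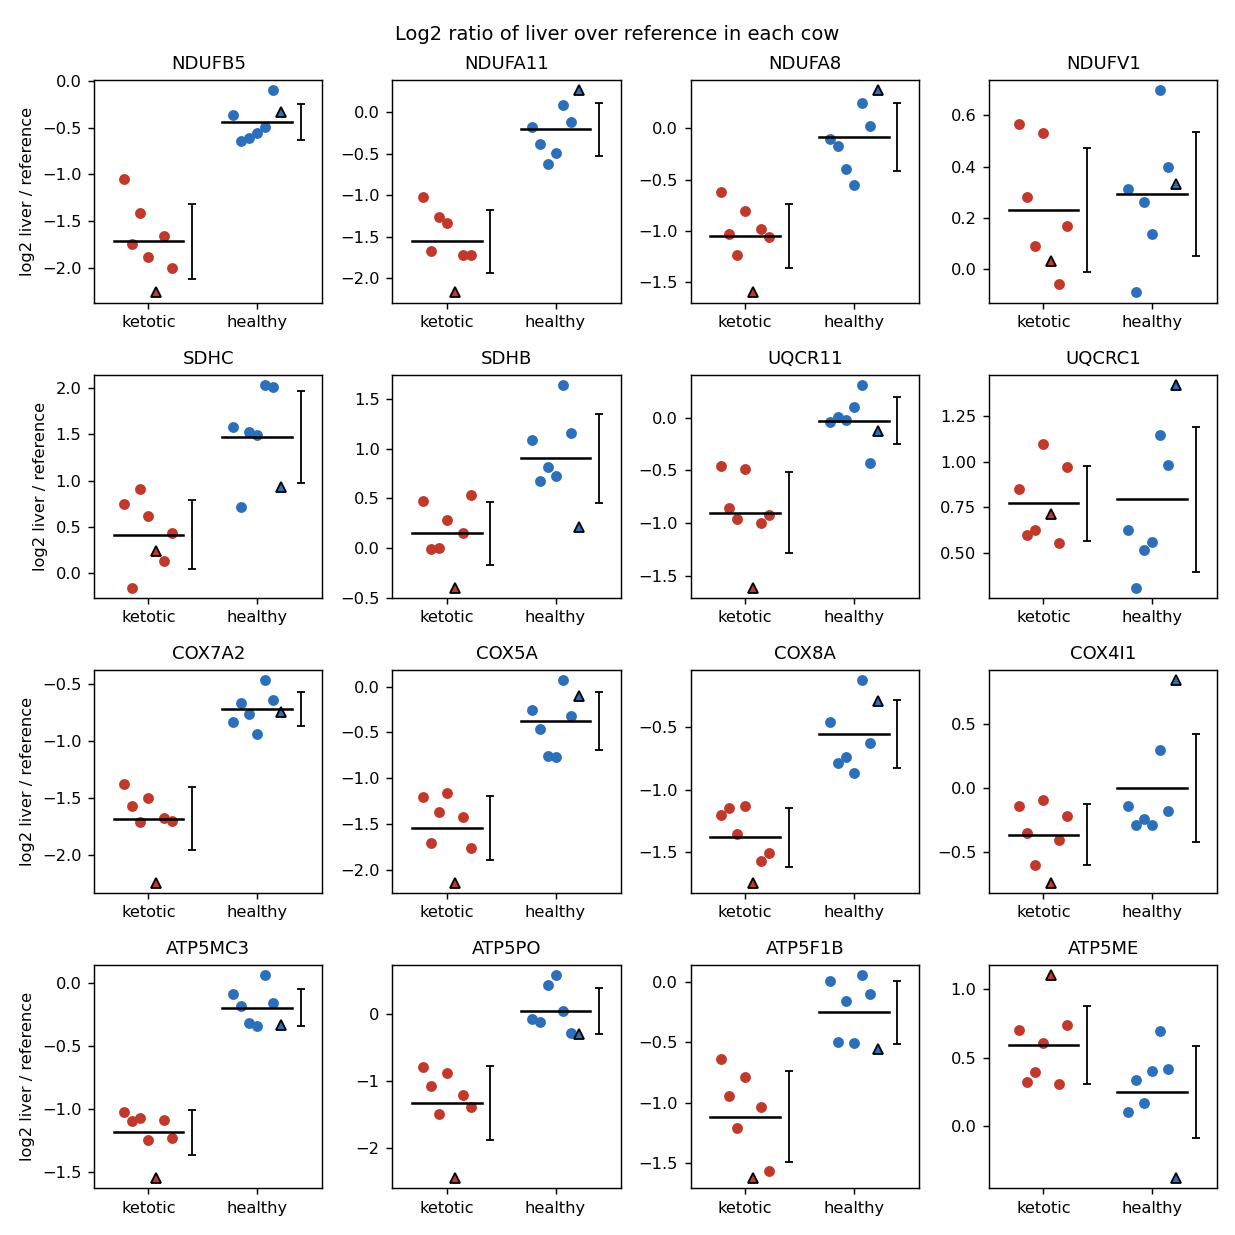
Log2 ratio of liver over reference in each cow (points) for 4 genes from complex I (top row), complex II with complex III, complex IV and ATP synthase (bottom row); horizontal bars are group means, vertical bars are 1 SD on each side (n = 7 cows a group) and triangles mark ketotic cow 5 and healthy cow 7. NDUFB5, COX7A2 and ATP5MC3 show separate groups, while NDUFV1, UQCRC1 and COX4I1 overlap.

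Complex II, succinate dehydrogenase, is at once an enzyme of the citric acid cycle and a point of entry for electrons. All 4 of its genes had healthy mean log2 ratios above 0, between 0.83 and 1.47. SDHC, one of the membrane anchors that bind ubiquinone, had -0.15, 0.44 and 0.90 in ketotic cows, against 0.71, 1.52 and 2.03 in healthy cows. The groups overlapped at their edges, and SDHC was 2.07-fold lower (difference -1.05, SE 0.228, limma adjusted p = 0.00989). SDHB, the iron-sulfur subunit, had -0.40, 0.16 and 0.53 in ketotic cows, against 0.21, 0.82 and 1.65 in healthy cows. The healthy value of 0.21 was healthy cow 7 and the next was 0.67, so that the other 6 healthy cows lay above every ketotic cow, and SDHB was 1.69-fold lower (SE 0.209, limma adjusted p = 0.0275). This call was lost in 4 of the 14 fits that left out 1 cow, with limma adjusted p-values of 0.0503 to 0.0558 without ketotic cow 2, ketotic cow 5, healthy cow 1 or healthy cow 6.

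SDHA, the flavoprotein that oxidises succinate, had a difference of -0.46 (limma adjusted p = 0.0737), and SDHD, the other membrane anchor, of -0.29 (0.539). For SDHD the ketotic cows were at 0.11, 0.65 and 0.81, against -0.70, 1.14 and 1.53 in healthy cows. The lowest healthy value was healthy cow 7 and the next was 0.62, and without that cow the difference was -0.55 (limma adjusted p = 0.0355). SDHA was at -0.48 without it (limma adjusted p = 0.048), so that all 4 complex II genes then passed. In that fit 18.4% of all genes fell.

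Complex III, which passes electrons from ubiquinol to cytochrome c, had 4 of 9 transcripts lower. With the empty-spot share of each cow in the fit 0 of the 9 passed, while their median difference was -0.57. UQCR11, a small accessory subunit, had log2 ratios of -1.61, -0.93 and -0.46 in ketotic cows, against -0.43, -0.02 and 0.31 in healthy cows. Its groups were separate, and UQCR11 was 1.83-fold lower (difference -0.87, SE 0.178, limma adjusted p = 0.00737). UQCRH, the hinge protein that docks near cytochrome c1, had -2.15, -1.12 and -1.07 in ketotic cows, against -0.96, -0.54 and -0.06 in healthy cows. Ketotic cows again lay wholly below healthy cows, with UQCRH 1.82-fold lower (SE 0.192, limma adjusted p = 0.0109).

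CYC1 encodes cytochrome c1, the haem protein that hands electrons to cytochrome c. It had log2 ratios of -1.80, -0.97 and -0.40 in ketotic cows, against -0.35, -0.27 and 0.16 in healthy cows, with separate groups, and was 1.72-fold lower (SE 0.189, limma adjusted p = 0.0155). UQCR10, another small subunit, had -0.75, -0.56 and 0.08 in ketotic cows, against -0.31, 0.16 and 0.53 in healthy cows. These groups overlapped, UQCR10 was 1.51-fold lower (SE 0.175, limma adjusted p = 0.0363), and the call held in 7 of the 14 fits that left out 1 cow, with adjusted p-values of 0.054 to 0.072 in the others (ketotic cow 2, 5, 6 or 7 or healthy cow 1, 3 or 5 left out).

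Neither of the large core proteins of complex III passed, at an adjusted or unadjusted p. UQCRC1 had log2 ratios of 0.55, 0.71 and 1.10 in ketotic cows, against 0.31, 0.62 and 1.42 in healthy cows, with a difference of -0.02 (SE 0.179, limma adjusted p = 0.955). UQCRC2 had -0.75, 0.19 and 0.74 in ketotic cows, against -1.91, 0.53 and 0.87 in healthy cows, with a difference of -0.12 (limma adjusted p = 0.876). The value of -1.91 was healthy cow 7, and without it the difference was -0.49 (limma adjusted p = 0.0966). The core proteins were picked for description after their values were seen. UQCRFS1, the Rieske iron-sulfur protein, had the highest difference in the complex, 0.09 (limma adjusted p = 0.793), and its sign depended on the probe: 3 probes gave -0.04, 0.60 and -0.26, with adjusted p-values of 0.933, 0.328 and 0.379.

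Complex IV, cytochrome c oxidase, reduces oxygen to water, and its mitochondrially encoded catalytic subunits were not measured here. COX7A2, the isoform of subunit VIIa found in liver, had log2 ratios of -2.24, -1.67 and -1.37 in ketotic cows, against -0.94, -0.74 and -0.46 in healthy cows. No ketotic cow reached the healthy range, and COX7A2 was 1.95-fold lower (difference -0.96, SE 0.144, limma adjusted p = 0.00243). COX5A, a subunit on the matrix side, had -2.14, -1.43 and -1.17 in ketotic cows, against -0.77, -0.32 and 0.07 in healthy cows. The gap between the groups was wide, and COX5A was 2.25-fold lower (SE 0.185, limma adjusted p = 0.0025).

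COX8A, the small subunit of most tissues, had log2 ratios of -1.75, -1.35 and -1.13 in ketotic cows, against -0.87, -0.63 and -0.12 in healthy cows, with separate groups, and was 1.77-fold lower (SE 0.156, limma adjusted p = 0.00536). NDUFA4, named for complex I but a subunit of complex IV, had -1.96, -1.06 and -0.26 in ketotic cows, against -0.31, 0.05 and 0.45 in 6 healthy cows. The groups overlapped slightly, and NDUFA4 was 2.02-fold lower (SE 0.258, limma adjusted p = 0.0207). Counted with complex I instead, it brought that complex to 13 lower and left complex IV with 3.

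Subunit IV exists as a common form, COX4I1, and a lung-enriched form, COX4I2, and neither passed. COX4I1 averaged -0.36 ± 0.24 in ketotic cows and -0.00 ± 0.42 in healthy cows (SD, n = 7 each), with a limma adjusted p of 0.225. COX4I2 averaged -0.15 ± 0.55 in ketotic cows and -0.25 ± 0.66 in healthy cows (limma adjusted p = 0.881), and its difference of 0.09, the highest in complex IV, was -0.13 without healthy cow 7. COX5B, the zinc-binding subunit, had a difference of -0.58 with all cows (limma adjusted p = 0.0536) and of -0.45 without healthy cow 7 (0.0492). The heart and muscle forms COX6A2 and COX7A1 had too few values for the test, from 3 ketotic and 6 healthy cows and from 2 ketotic and 5 healthy cows. Among the 9 tested subunits 4 fell with all cows, where 12.4% of all genes did, and 7 without healthy cow 7, where 18.4% did.

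ATP synthase turns the proton flow into ATP through a rotating ring of c subunits in the membrane and a catalytic head in the matrix, held by a peripheral stalk. Both genes of the c ring that were tested fell. ATP5MC3 had log2 ratios of -1.55, -1.10 and -1.02 in ketotic cows, against -0.34, -0.19 and 0.06 in healthy cows. The groups stood far apart relative to their spread, and ATP5MC3 was 1.99-fold lower (difference -0.99, SE 0.126, limma adjusted p = 0.00186, the smallest of any member). ATP5MC1, which encodes the same mature c subunit with another leader peptide, had -0.85, -0.22 and 0.58 in ketotic cows, against 0.35, 1.10 and 1.79 in healthy cows. Overlap came through healthy cow 7, at 0.35, with the other healthy cows starting at 0.88, and ATP5MC1 was 2.46-fold lower (SE 0.239, limma adjusted p = 0.00466).

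ATP5PO, the stalk subunit that confers sensitivity to oligomycin, had log2 ratios of -2.44, -1.21 and -0.79 in ketotic cows, against -0.30, -0.08 and 0.58 in healthy cows. The groups were separate, with ketotic cow 5 lowest and the next ketotic cow at -1.50, and ATP5PO was 2.58-fold lower (SE 0.238, limma adjusted p = 0.00361). ATP5F1B, the catalytic beta subunit of the head, had -1.62, -1.03 and -0.64 in ketotic cows, against -0.55, -0.16 and 0.05 in healthy cows. The ketotic cows lay below the healthy cows, with ATP5F1B 1.82-fold lower (SE 0.181, limma adjusted p = 0.00816). ATP5F1D, the delta subunit of the central stalk, was 1.44-fold lower (difference -0.52, limma adjusted p = 0.022), with ketotic cows at -0.31, 0.01 and 0.20 and healthy cows at 0.22, 0.60 and 0.82. That was the smallest change among the members that fell, and its groups did not overlap.

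ATP5PD, a stalk subunit, had a difference of -0.68 with all cows (limma adjusted p = 0.0727) and of -0.87 without healthy cow 7 (0.00488), which was at -0.99 against 0.18 for the next healthy cow. ATP5ME, a membrane subunit involved in forming dimers of the enzyme, had the highest difference in the complex, 0.35 (limma adjusted p = 0.213). Its log2 ratios were 0.31, 0.61 and 1.10 in ketotic cows, against -0.38, 0.34 and 0.69 in healthy cows. Every ketotic cow was above the healthy mean, yet the ranges overlapped, and without centring of the arrays its difference was -0.05.

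ATP5IF1 encodes the inhibitor that stops ATP synthase from running backwards and hydrolysing ATP. It had log2 ratios of -1.85, -1.34 and -0.81 in ketotic cows, against -0.76, -0.57 and -0.36 in healthy cows. The groups were separate, and ATP5IF1 was 1.69-fold lower (SE 0.155, limma adjusted p = 0.0075), in the same direction as the enzyme's catalytic subunit.

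Of the 9 tested assembly factors and regulators, ATP5IF1 included, 4 fell (44.4%, against 12.4% of all genes). NDUFAF3, an early assembly factor of complex I, had log2 ratios of -1.66, -0.69 and -0.50 in ketotic cows, against -0.35, -0.18 and 0.10 in healthy cows, with separate groups, and was 1.55-fold lower (limma adjusted p = 0.0283, but 0.0556 without healthy cow 5). NDUFAF7, a methyltransferase of complex I assembly, had a difference of -0.24 (limma adjusted p = 0.564; 6 cows a group). For complex IV, COX11, which delivers copper to the enzyme, had -0.10, 0.08 and 0.13 in 6 ketotic cows, against 0.45, 0.69 and 1.71 in healthy cows. The groups were separate, and COX11 was 1.69-fold lower (limma adjusted p = 0.0176). COX16 had -1.85, -1.27 and -0.72 in 6 ketotic cows, against -0.75, -0.43 and 0.85 in healthy cows, which just overlapped, and was 2.09-fold lower (limma adjusted p = 0.0197). COX10, which makes haem A's precursor, was at -0.07 (limma adjusted p = 0.773). The 2 tested assembly factors of complex I had a median difference of -0.43 and the 6 of complex IV one of -0.48, and neither of the 2 for complex III was tested.

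The 8 other members could not be tested for want of values: ATP5MJ, COX6A2, COX7A1, COX7B, NDUFA4L2, NDUFAF5, UQCC4 and UQCC5. UQCC5 had a value in 0 ketotic and 5 healthy cows and COX7B in 1 ketotic and 3 healthy cows.

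Most members were lower with either dye on the liver RNA, and the differences were larger with liver in Cy3. The difference was below 0 in both dye orientations for 65 of the 76 tested members, against 53.3% of all genes. With liver in Cy3 alone 35 members fell, where 8.73% of all genes did, and with liver in Cy5 alone 1 did, ATP5MC3, where 0.144% of all genes did. By complex the medians with liver in Cy3 were -0.68, -0.70, -0.62, -0.77 and -0.88 for complexes I to V, and with liver in Cy5 they were -0.46, -0.51, -0.47, -0.52 and -0.46. The Cy3 median was the lower of the pair in each complex, and over all genes the medians of both orientations lay close together, at -0.19 with Cy3 and -0.18 with Cy5.

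**Figure D4:**
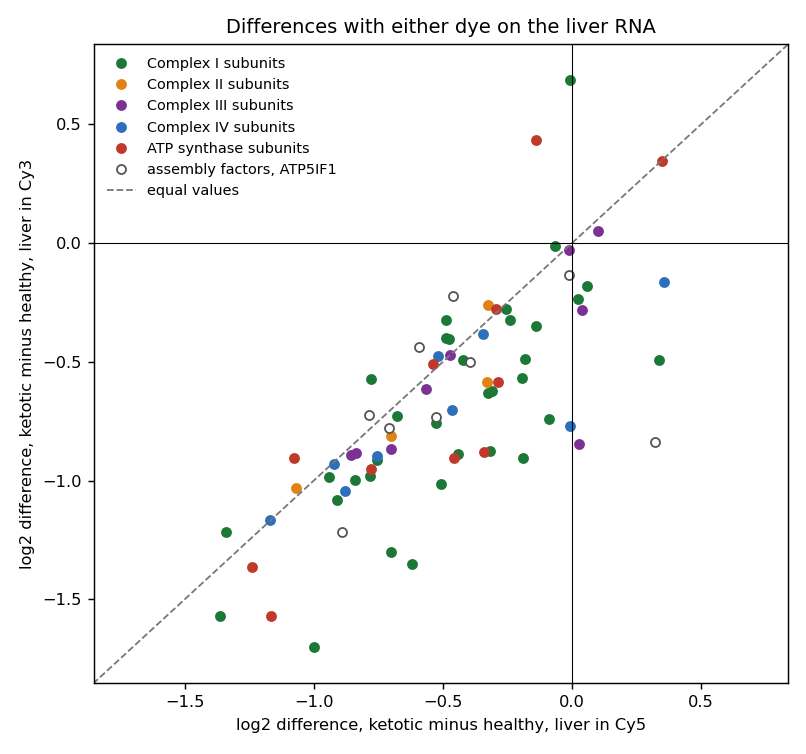
Log2 difference, ketotic minus healthy, from the arrays with liver in Cy5 (horizontal axis) and with liver in Cy3 (vertical axis), 1 point per tested gene, coloured by complex; the dashed line marks equal values. Of 76 points, 65 lie below 0 on both axes.

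How the arrays are scaled moved the members and all genes alike. The members' median less that of all genes was -0.38 as reported, and it was -0.33, -0.42, -0.41, -0.40 and -0.43 for complexes I to V. Without centring, the median of all genes was at -0.58, that of the members at -0.96, and 59 members fell where 35.4% of all genes did. With arrays centred on the 7426 probes that had a value on every array, the median of all genes was at -0.05, that of the members at -0.43, and 26 members fell where 7.09% of all genes did.

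**Figure D5:**
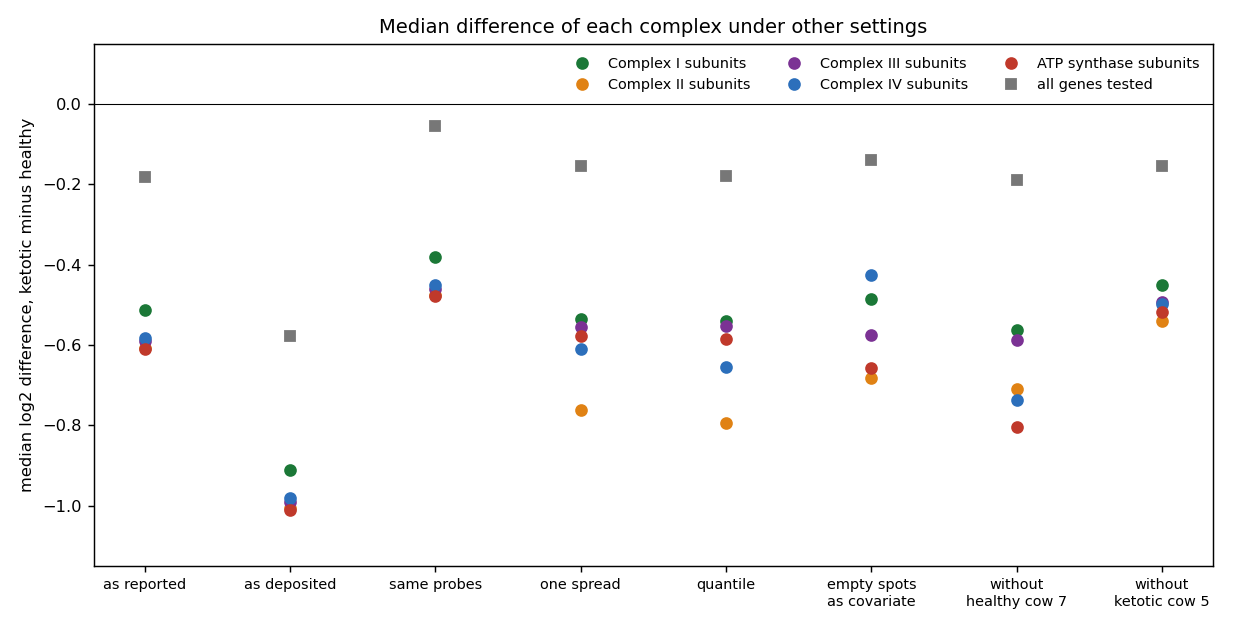
Median log2 difference, ketotic minus healthy, of each complex (circles) and of all genes tested (squares) as reported and under 7 other settings along the horizontal axis. All 5 complexes lie below all genes tested in every setting shown, from -0.91 to -1.01 without centring of the arrays and from -0.38 to -0.48 with centring on the same probes.

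Covariation over the cows was described within and between complexes. After group means were removed, the median correlation over the 14 cows was 0.405 for 694 pairs of subunits from the same complex and 0.412 for 1517 pairs from different complexes, against 0.0419 over all pairs of genes tested. Of the same-complex pairs 561 lie within complex I, with a median of 0.399. The median was 0.668 over the 6 pairs within complex II, 0.411 within complex III, 0.524 within complex IV and 0.407 within ATP synthase. These correlations describe values that share arrays and scaling, and without healthy cow 7 they were 0.510, 0.513 and 0.0553, with 0.624 within complex II and 0.721 within complex IV.

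Genes around the complexes were read from listed groups. Of 40 listed assembly factors outside the symbol families 16 were tested, of which 6 fell and 0 rose, where 12.4% of all genes fell. Their median difference was -0.22, or -0.37 without healthy cow 7, against -0.18 and -0.19 over all genes. Among them, TTC19, needed for complex III upkeep, was 1.6-fold lower (limma adjusted p = 0.00755) and OXA1L, the insertase of the inner membrane, 1.69-fold lower (limma adjusted p = 0.0118). Of 19 listed genes of mitochondrial biogenesis 12 were tested, with a median difference of -0.07, and 1 fell, where 12.4% of all genes did. It was the transcription factor YY1, with a difference of -0.88 with all cows (limma adjusted p = 0.0471). Without healthy cow 7 its difference was -0.62 (limma adjusted p = 0.0117). Of 19 listed genes for other routes of electron entry and for nucleotide exchange 11 were tested, with a median of -0.32. There, 2 fell with all cows, where 12.4% of all genes did, and 4 without healthy cow 7, where 18.4% did. The 2 were VDAC3, a pore of the outer membrane, and ETFA, which takes electrons from fatty acid oxidation. Each was 1.99-fold lower (limma adjusted p = 0.00361 and 0.0203).

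Markers of the liver's cell types were read beside these counts, and their part in them was not tested. Over all genes 12.4% fell and 0.92% rose with all cows, and 18.4% fell and 1.5% rose without healthy cow 7. Of 15 tested hepatocyte markers 0 fell and 2 rose (median difference 0.59), and without healthy cow 7, 1 fell and 2 rose (median 0.24). Their per-cow median log2 ratio ran from 5.16 to 6.87 in ketotic cows and from 3.03 to 7.04 in healthy cows. Of 6 macrophage markers 2 fell, CD74 and LAPTM5 (median of the 6 -0.49), or 3 without healthy cow 7, with C1QB added (median -0.80). MARCO, CD14 and C1QA passed in neither fit. The per-cow medians of the 6 ran from 0.17 to 3.14 in ketotic cows and from 0.56 to 4.22 in healthy cows. Of 5 stellate and fibroblast markers 0 passed in limma (median -1.10), or 1 without healthy cow 7, which was lower (median -0.61), with per-cow medians of -3.72 to -2.22 in ketotic cows and -3.31 to 0.85 in healthy cows. Of 4 bile duct markers 1 fell, KRT8 (limma adjusted p = 0.00984), or 2 without healthy cow 7, with EPCAM added (limma adjusted p = 0.049). KRT18 and KRT19 passed in neither fit. The per-cow medians of the 4 ran from -1.89 to -1.37 in ketotic cows and from -1.50 to -0.84 in healthy cows. Of 3 lymphocyte markers 1 fell and 1 rose, and of 2 endothelial markers and 1 blood marker none passed.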

How the data were processed

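The deposited values are log2 ratios of Cy5 over Cy3, 1 per spot, for 28 arrays (2 per cow, dyes exchanged). How the authors processed the scans before that, and the array's genome build, are not given in the sources used here, so no intensities and no coordinates were used. Of 27648 spots, adjacent pairs were averaged to 13824 probes. A ceiling value of 16.61, met 6245 times, and 103458 empty cells were read as missing, while 5777 exact zeros were kept. The sign was turned on arrays whose liver RNA carried Cy3, and each array was centred on its median (deposited medians ran from -1.03 to 2.17). A cow's value is the mean of both arrays, both being required, and a minimum of 5 cows per group left 10420 probes.

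Of the probes, 8645 had 1 symbol in the platform annotation, 105 had several and 5074 had none. Those with several or none were left unnamed, and 8620 of the first were matched to the RefSeq gene table for current symbols. Probes of a gene were averaged, giving 6958 genes; UQCRFS1 was the only member with several probes. The fit used lmFit and eBayes of limma 3.58.1 in R 4.3.3, two-sided, on 7 ketotic and 7 healthy cows with no covariate, with p-values adjusted by Benjamini-Hochberg over all 6958 genes and a threshold of 0.05. The labels do not state whether further technical steps were shared between cows. Figures were drawn with matplotlib 3.10.9.

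Complexes were compared by counts, medians and per-cow medians, with no test. The rule named, in each complex, up to 4 passing genes with the smallest p by cow, other passing genes by their difference, the gene of the highest difference and isoform pairs such as COX4I1 and COX4I2. Cow values of NDUFS4 and ATP5F1D were added after their values were seen. The remaining named subunits (NDUFS1, NDUFS3, NDUFS7, NDUFS8, NDUFV1, NDUFV2, UQCRC1, UQCRC2, SDHA, COX5B and ATP5PD) were chosen after their values were seen. The genes and all lists were chosen with earlier results of these data known.

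The steps were tested on simulated data, in 10 runs of 6958 genes with 200 changed in each. There limma recovered 11.9% of changes of 0.5 log2 units, 57.3% of 1 and 92.1% of 2, with 4.13% of calls false. In the data 865 genes were called lower, more than the 200 changed in a run, so recovery in the data may differ from these rates. Alternatives covered scaling, missing values, dyes, weights, filters, thresholds and each cow left out.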

Additional observations from a re-analysis of the deposited data

Results flagged for a closer look

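Over the values checked, 126 groups of 7 cows, 26 held a cow farther from the rest than Dixon's 95% limit, where chance gives about 6.3 (1 in 20). Healthy cow 7 was the outlying cow in 11 of the 26 groups, and ketotic cow 5 in most of the others.

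In ketotic cow 5 the outlying log2 ratios were NDUFS4 at -4.01 (next ketotic cow -1.69), NDUFA6 at -2.60 (-1.04), ATP5PO at -2.44 (-1.50), COX7A2 at -2.24 (-1.71) and NDUFA1 at -2.15 (-1.14). The same cow was at -2.09 for NDUFS5 (-1.10), -2.06 for NDUFA2 (-0.915), -1.66 for NDUFAF3 (-0.772), -1.36 for ATP5PD (-0.65), -1.33 for NDUFC1 (-0.691), -0.935 for NDUFA7 (-0.482) and -0.751 for UQCRC2 (next 0.0972). It lay below the other ketotic cows each time.

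Healthy cow 7 was below the other healthy cows for UQCRC2 at -1.91 (next healthy cow 0.432), COX4I2 at -1.58 (-0.317), NDUFV2 at -1.57 (-0.152), NDUFS1 at -1.09 (0.298), NDUFA1 at -1.07 (-0.267), ATP5PD at -0.992 (0.179), NDUFS5 at -0.979 (-0.217) and SDHD at -0.698 (0.617). It was above them for COX11 at 1.71 (0.882) and for the transcription factor YY1 at 1.14 (-0.504). Its median over ATP synthase subunits, gene-centred, was -0.152, with the next healthy cow at 0.315.

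The remaining cases were ketotic cow 7 for COX4I2 at -1.34 (next -0.144), healthy cow 6 for NDUFA12 at -1.31 (-0.702) and healthy cow 5, whose complex III median of 0.669 was above the next healthy cow at 0.364.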

How the results depend on the processing

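All 31 genes that fell kept a difference below 0 under every alternative in which they were tested. With each cow left out in turn, 28 to 51 members fell, where 8.92% to 18.4% of all genes did. The median member difference ran from -0.63 to -0.49. By complex, 11 to 21 subunits fell in I, 1 to 4 in II, 3 to 5 in III, 4 to 7 in IV and 5 to 8 in ATP synthase. The highest counts, and the highest share of all genes, were without healthy cow 7. Counts that moved by over 1.5 times are given as all members and then complexes I to V. Values as deposited gave 59 members (27, 3, 6, 7 and 9; medians -0.96 over all and -0.91, -1.01, -0.99, -0.98 and -1.01). Array weights gave 47 (20, 2, 5, 6 and 8; 18.5% of all genes), liver in Cy5 alone 1 (0, 0, 0, 0 and 1), the empty-spot share as a covariate 9 (3, 1, 0, 2 and 3), and a threshold of 0.01 gave 13 (3, 1, 1, 3 and 4; 3.19% of all genes). A threshold of 0.10 gave 20 in complex I (17.9% of all genes). Centring on the same probes left 1 in complex II, and arrays of the same spread and quantile normalisation each left 2 in complex III. Accepting either array of a cow gave 1 member that rose, where 0.871% of all genes did. Chosen after seeing the data and without healthy cow 7, arrays of the same spread gave 51 members (21, 4, 6, 7 and 8; 18.9% of all genes) and the covariate gave 24, with 2 in complex III. The causes were not tested.

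Some of the genes named changed sign. Most of these were near 0 as reported, but NDUFB1 (0.37), ATP5ME (0.35) and NDUFAF7 (-0.24) were not. As deposited, ATP5ME was at -0.052, COX4I2 at -0.31, NDUFB1 at -0.095 and UQCRFS1 at -0.31. With the same probes, COX10 was at 0.059, NDUFS7 at 0.054, NDUFV1 at 0.069, UQCRC1 at 0.11 and UQCRC2 at 0.011, and without healthy cow 7 as well COX10 was at 0.047, NDUFV1 at 0.081 and UQCRC1 at 0.22. COX4I2 was at -0.17 with liver in Cy3, -0.023 with array weights, -0.035 with the covariate, -0.084 with arrays of the same spread without healthy cow 7 and -0.14 with the covariate without it. With liver in Cy5, NDUFAF7 was at 0.32, NDUFB1 at -0.0091, NDUFS7 at 0.34, NDUFV1 at 0.057 and UQCRC2 at 0.040. Array weights put NDUFS7 at 0.061, NDUFV1 at 0.018 and UQCRC1 at 0.14, and UQCRFS1 was at -0.15 with values required in all 7 cows and at -0.039 with probes singly. Leaving out 1 cow, NDUFS7 ran from -0.20 to 0.027, UQCRC1 from -0.10 to 0.083, UQCRFS1 from -0.043 to 0.19, UQCRC2 from -0.49 to 0.031, NDUFV1 from -0.13 to 0.0049 and COX4I2 from -0.13 to 0.29. The 10420 probes tested needed values in 5 cows of each group, so members with fewer values were not tested. No paired analysis was possible because the cow numbers only name cows within a group and link none across groups.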
